A study of Mus musculus with 32 samples.

Results

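Heme oxygenase, ferritin and the genes that make, break down, import, export and sense heme and iron were followed in FE1 cells exposed to hydrazine. They are 10 genes, chosen by symbol, of 49585 entries in the deposited table of expected counts: Hmox1, Blvra, Blvrb, Alas1, Fech, Ftl1, Fth1, Slc40a1, Tfrc and Ireb2. These genes, and the wider gene lists used below, were chosen with earlier results of these data known. All 10 passed the filter on low counts. FE1 is an established mouse line derived from the lung of a transgenic reporter strain, and hydrazine is a small reactive reducing agent. Cells were given 0 (vehicle), 1, 4, 6 or 10 mM hydrazine for 4 h and were collected then, or were collected after 4 h of exposure and 20 h of washout. Each of the 10 groups held 3 libraries, except 4 mM at 4 h, which held 5. All groups are this single line, and the composition of the vehicle was not given in the sources used here. RNA-seq was poly-A selected and stranded, with totals of 10560942 to 17086721 counts per library.

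Heme is built from glycine and succinyl-CoA in a pathway that starts with Alas1 and ends when Fech inserts iron. Heme oxygenase, encoded by Hmox1, opens the ring and releases iron, carbon monoxide and biliverdin, which the reductases Blvra and Blvrb turn into bilirubin. Freed iron is stored inside a cage of ferritin light (Ftl1) and heavy (Fth1) chains or leaves the cell through ferroportin (Slc40a1), and the transferrin receptor (Tfrc) brings iron in. Ireb2 encodes IRP2, an RNA-binding protein that, with IRP1 (Aco1), binds iron-responsive elements when iron is scarce: in a 5′ UTR this blocks translation, and in the Tfrc 3′ UTR it protects the message from decay. Transcription of Hmox1 and both ferritin chains is also known to be raised by NRF2 and held down by BACH1, a repressor that heme releases from DNA.

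The iron-responsive elements are shown because they sort these genes by the direction in which iron is known to act on their messages. A search of GENCODE M21 coding transcripts (GRCm38) looked for a bulged C, 5 stem bases, a loop of CAGTG followed by A, C or T, and 5 bases pairing with the stem, G-T pairs allowed. It matched 4 of the 10 genes, against 222 of 21877 coding genes (1.01%). Ftl1, Fth1 and Slc40a1 each had a match in the 5′ UTR within exon 1, and Tfrc had 4 in the 3′ UTR within exon 19. No match was found in annotated transcripts of Hmox1, Blvra, Blvrb, Alas1, Fech or Ireb2 with this pattern. In the lines that follow, capitals mark the loop and each site is read 5′ to 3′ on the strand of its gene.
Ftl1, 5′ UTR, chr7:45459780-45459806, minus strand: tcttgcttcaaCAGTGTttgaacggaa
Fth1, 5′ UTR, chr19:9982733-9982759, plus strand: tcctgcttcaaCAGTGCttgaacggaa
Slc40a1, 5′ UTR, chr1:45925466-45925492, minus strand: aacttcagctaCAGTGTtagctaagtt
Tfrc site 1, 3′ UTR, chr16:32631220-32631246, plus strand: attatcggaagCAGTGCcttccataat
Tfrc site 2, 3′ UTR, chr16:32631599-32631625, plus strand: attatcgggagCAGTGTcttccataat
Tfrc site 3, 3′ UTR, chr16:32631664-32631690, plus strand: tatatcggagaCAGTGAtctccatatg
Tfrc site 4, 3′ UTR, chr16:32631711-32631737, plus strand: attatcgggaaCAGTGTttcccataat

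Among the libraries, replicate c of 6 mM after washout stood apart. Its log2 CPM differed from the other replicates of its group with an SD of 0.583 over genes, against 0.278 to 0.432 for the other libraries. Calls that rest on it are given with and without it. The labels name the cells as lung epithelial, but defining epithelial markers were near 0: Epcam had a count in 5 of 32 libraries and reached 0.0868 CPM, Cdh1 reached 13 counts and Krt8 reached 0.773 CPM. The surfactant genes Sftpc and Sftpa1 and the lung factor Nkx2-1 were at 0 in all libraries. Vim, Col1a1 and Col1a2 had medians of 4936, 5664 and 3198 CPM. Of the other mesenchymal markers listed, Cdh2 had a median of 275 CPM, but Pdgfrb and Thy1 had only 4.61 and 3.50 CPM. The line is therefore called FE1 cells here. Erythroid markers, whose cells carry most heme, reached at most 0.368 CPM for any gene of the list, and the macrophage marker Adgre1 was at 0 in all libraries. Values are CPM, counts scaled to library sizes after TMM normalisation, and in such bulk RNA fewer cells carrying a transcript and less of it per cell cannot be told apart.

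A gene was called at an adjusted p below 0.05 in the quasi-likelihood test of edgeR, adjusted by Benjamini-Hochberg over 13258 tested genes, in 1 fit of all 32 libraries. At 1 mM and 4 h, 1 of the 10 genes was higher and 1 lower, against 9.84% of all tested genes called (4.48% higher, 5.36% lower). At 4 mM and 4 h, 3 were higher and 1 lower, with a background of 38.6% (19.5% higher, 19.1% lower). The count was the same at 6 mM and 4 h, with a background of 39.8% (20.3% higher, 19.6% lower). At 10 mM and 4 h, 5 were higher and 1 lower, with a background of 50.1% (26% higher, 24.1% lower; with library totals alone 2182 genes were higher and 4557 lower, against 3445 and 3195). The number called among the 10 thus stood near the background at 4, 6 and 10 mM. After washout none was called at 1 mM, where 0.981% of all genes were (0.694% higher, 0.287% lower). Without replicate c of 6 mM after washout 1 was called lower there, Tfrc, and 506 of all genes were called in place of 130. At 4 mM after washout 2 were lower, with a background of 3.48% (2.31% higher, 1.17% lower). At 6 mM after washout 1 was higher and 2 were lower (2 called in all without replicate c), with a background of 11.1% (6.43% higher, 4.63% lower). At 10 mM after washout 1 was lower, with a background of 5.32% (3.38% higher, 1.94% lower). The median log2 fold change of the 10 genes at 10 mM and 4 h was 0.22, against 0.01 over all tested genes. Blvra and Fech were called in none of the 19 comparisons made in this fit. With library totals alone Blvra was called lower at 10 mM and 4 h (-0.25, adjusted p = 0.0127). Without replicate b of 4 h vehicle Fech was called higher at 4 mM and 4 h (0.13, adjusted p = 0.0423).

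**Figure D1:**
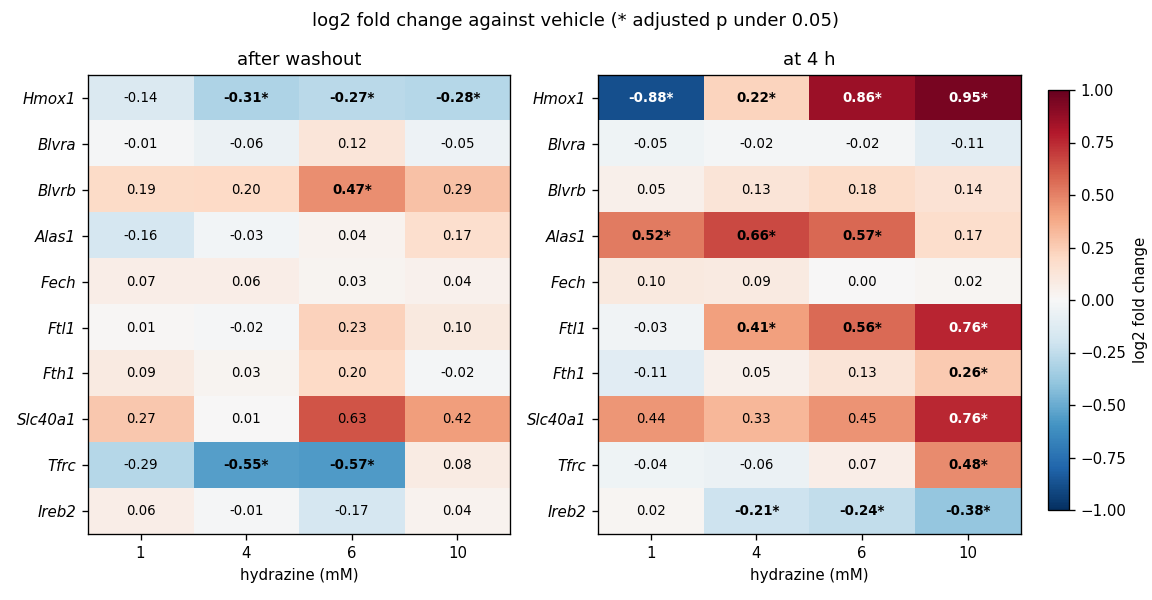
Log2 fold change against vehicle of the same time for the 10 genes (rows) at 1, 4, 6 and 10 mM hydrazine (columns), after washout and at 4 h. Stars and bold type mark an adjusted p under 0.05; Hmox1 runs from -0.88 at 1 mM to 0.95 at 10 mM at 4 h, while after washout the called values of Hmox1 and Tfrc are all negative.

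Hmox1 (ENSMUSG00000005413.8, chr8:75093621-75100589, plus strand, 5 exons) moved in opposite directions with dose at 4 h. The vehicle libraries had 128, 118 and 139 CPM, and those at 1 mM had 74.0, 66.9 and 68.0 CPM. At 4 mM the libraries had 146, 152, 140.2, 163 and 148 CPM. At 6 mM they had 234, 234 and 229.7 CPM, and at 10 mM 247, 244 and 251 CPM. All libraries at 1 mM lay below every vehicle library, and all at 4, 6 and 10 mM lay above. At 1 mM the log2 fold change against vehicle was -0.88 ± 0.06 (SE, adjusted p = 1.92e-10), which was rank 1 of the 13258 genes by p. It was 0.22 ± 0.05 at 4 mM (adjusted p = 0.00153), 0.86 ± 0.06 at 6 mM (adjusted p = 1.68e-12) and 0.95 ± 0.06 at 10 mM (adjusted p = 1.17e-13).

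The order of Hmox1 at 4 h was 1 mM, vehicle, 4 mM, 6 mM, 10 mM from low to high. Between neighbouring doses it was 1.11 ± 0.06 log2 higher at 4 than at 1 mM (adjusted p = 7.50e-15) and 0.63 ± 0.05 higher at 6 than at 4 mM (adjusted p = 3.69e-09). The background was 24.7% called for 4 against 1 mM, 8.06% for 6 against 4 mM and 37.5% for 10 against 6 mM. Between 10 and 6 mM the libraries did not overlap, but the log2 difference of 0.09 ± 0.06 was not called (adjusted p = 0.270).

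After washout Hmox1 was low in every group. The vehicle libraries had 58.9, 62.1 and 54.9 CPM, and those at 1 mM had 53.1, 55.0 and 51.3 CPM. At 4 mM they had 48.3, 47.6 and 46.4 CPM, at 6 mM 45.4, 48.1 and 52.9 CPM, and at 10 mM 49.5, 47.6 and 47.5 CPM. All libraries at 4, 6 and 10 mM lay below every vehicle library, and those at 1 mM overlapped with vehicle by 1 library. The log2 fold changes were -0.31 ± 0.07 at 4 mM (adjusted p = 0.00562), -0.27 ± 0.06 at 6 mM (adjusted p = 0.00793) and -0.28 ± 0.06 at 10 mM (adjusted p = 0.00659). The change at 1 mM was -0.14 ± 0.07 (adjusted p = 0.330). Without replicate b of the washout vehicle, the adjusted p reached 0.0505 at 6 mM and 0.0548 at 10 mM, and without replicate c of 6 mM it was 0.00157 at 6 mM. When the fit held only the 6 libraries compared, the change at 6 mM was -0.26 and not called (adjusted p = 0.381).

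The vehicles themselves differed. Hmox1 stood at 58.7 ± 3.61 CPM in washout vehicle and at 128 ± 10.9 CPM in 4 h vehicle (SD, n = 3 each), a log2 change of -1.13 ± 0.06 (adjusted p = 4.25e-13) and again rank 1 of all tested genes by p, against 6.89% of genes called in that comparison (3.33% higher, 3.55% lower). The level at 1 mM and 4 h, 69.6 ± 3.82 CPM, lay between these 2 vehicle levels. Of the 10 genes, Slc40a1, Ftl1 and Alas1 were also lower in washout vehicle, and none was higher. Fth1 was not called there (-0.18, adjusted p = 0.270). Without replicate c of 6 mM after washout it was called lower (-0.19, adjusted p = 0.0253).

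**Figure D2:**
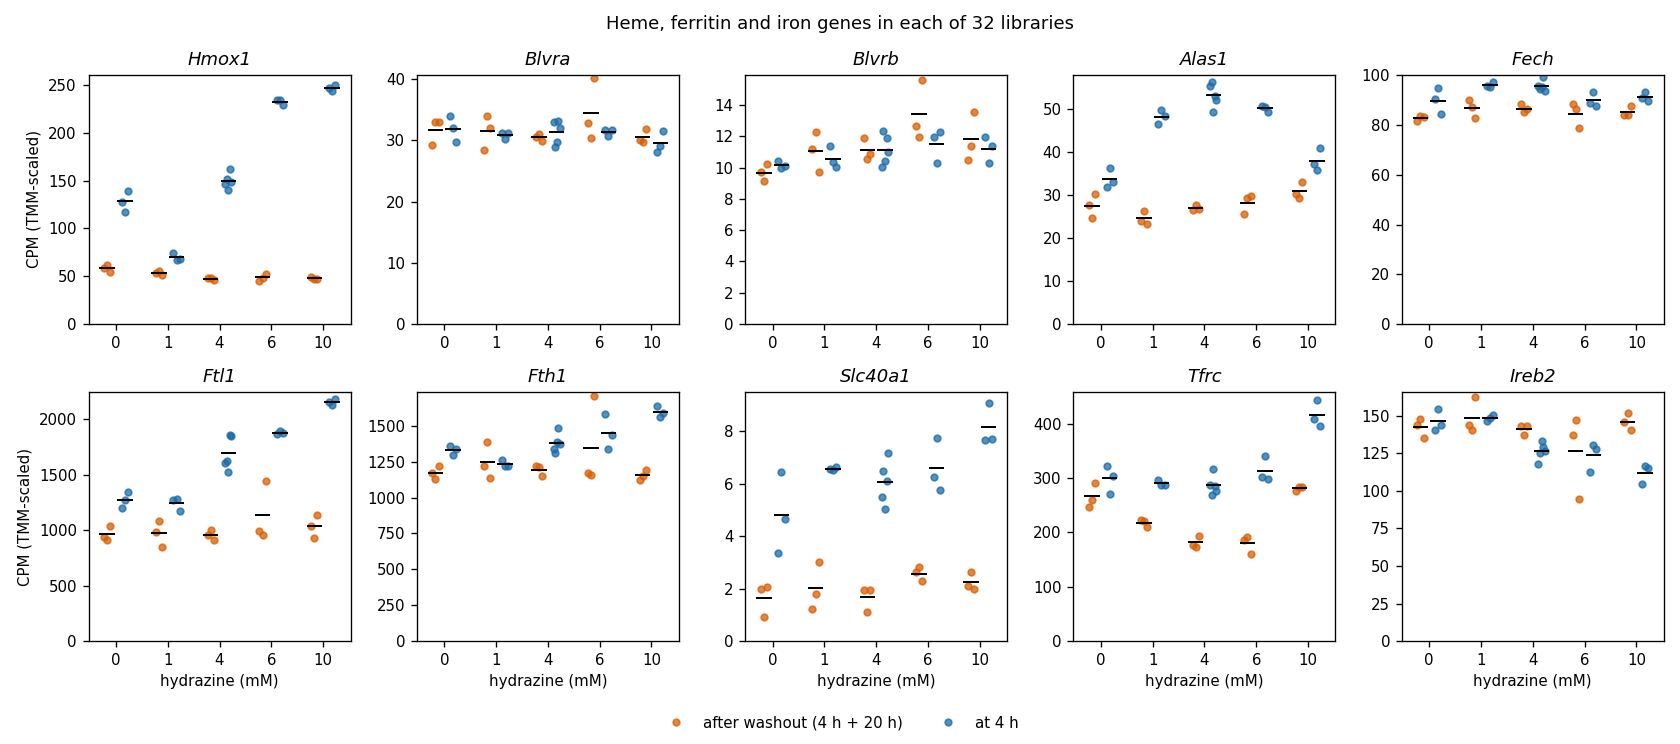
CPM of each of the 10 genes in every library, by hydrazine dose in mM, with washout libraries in orange to the left of 4 h libraries in blue; points are libraries and black bars are group means. Hmox1 and Ftl1 climb with dose from 4 mM at 4 h, and after washout Hmox1 is lower than vehicle from 4 mM upwards while Ftl1 overlaps with vehicle; Alas1 peaks at 4 mM, and 1 library of 6 mM after washout stands high for Ftl1 and Fth1 and low for Ireb2.

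With TMM scaling the biliverdin reductases showed little movement at 4 h. At 10 mM and 4 h the log2 fold change of Blvra was -0.11 (adjusted p = 0.305), and -0.25 with library totals alone (adjusted p = 0.0127). Blvra (ENSMUSG00000001999.15, chr2:127070665-127097084, plus strand), which acts on the main biliverdin isomer, ranged from 28.2 to 33.9 CPM in all 17 libraries at 4 h and from 28.5 to 40.1 CPM in the 15 after washout. Its highest value was in replicate c of 6 mM after washout. Blvrb (ENSMUSG00000040466.16, chr7:27447978-27466144, plus strand), a flavin and biliverdin reductase, ranged from 9.96 to 12.3 CPM at 4 h. After washout it had 12.6, 12.0 and 15.6 CPM at 6 mM, against 9.70, 9.12 and 10.2 CPM in vehicle. These groups did not overlap, and the log2 fold change was 0.47 ± 0.11 (adjusted p = 0.00754). Without replicate c of 6 mM it was 0.34 and no longer called (adjusted p = 0.0794; over all alternatives the adjusted p ran from 0.00368 to 0.279). All libraries at 4 and 10 mM also lay above vehicle, with log2 fold changes of 0.20 ± 0.12 and 0.29 ± 0.11 that were not called (adjusted p = 0.415 and 0.152).

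At the start of heme synthesis, Alas1 (ENSMUSG00000032786.16, chr9:106233455-106248654, minus strand), whose product makes aminolevulinic acid, followed a peaked course at 4 h. Vehicle libraries had 31.9, 36.3 and 33.1 CPM, those at 1 mM 46.6, 49.7 and 48.4 CPM, and those at 4 mM 55.4, 56.4, 49.4, 53.1 and 52.3 CPM. At 6 mM they had 50.7, 50.6 and 49.3 CPM, and at 10 mM 37.2, 35.8 and 40.9 CPM. Libraries at 1, 4 and 6 mM all lay above vehicle, and those at 10 mM overlapped with it. The log2 fold changes were 0.52 ± 0.07 at 1 mM (adjusted p = 2.76e-05), 0.66 ± 0.07 at 4 mM (adjusted p = 2.90e-09) and 0.57 ± 0.07 at 6 mM (adjusted p = 2.23e-07). At 10 mM it was 0.17 ± 0.07 and not called (adjusted p = 0.0569). It was called in 2 of 42 alternatives (adjusted p = 0.0267 without replicate b of vehicle). With library totals alone it was 0.03 (adjusted p = 0.742). Alas1 fell by 0.40 on the log2 scale at 10 mM against 6 mM (SE 0.07, adjusted p = 6.21e-05). Between 4 and 1 mM, and between 6 and 4 mM, the differences of 0.14 and -0.09 were not called (adjusted p = 0.0969 and 0.473).

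After washout Alas1 ranged from 23.4 to 33.0 CPM over all 15 libraries and no dose was called. Washout vehicle was lower than 4 h vehicle, with 27.6, 24.8 and 30.2 CPM against 31.9, 36.3 and 33.1 CPM and a log2 change of -0.29 ± 0.08 (adjusted p = 0.0157). That call was lost without replicate b of either vehicle (adjusted p = 0.127 and 0.114, within a range of 0.00682 to 0.127 over all alternatives). The last enzyme of the pathway, Fech (ENSMUSG00000024588.8, chr18:64452914-64490251, minus strand), stayed between 84.3 and 99.2 CPM at 4 h and between 78.7 and 89.9 CPM after washout. Its largest log2 fold change against vehicle was 0.10 ± 0.05, at 1 mM and 4 h (adjusted p = 0.255).

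Of 8 tested enzymes of heme synthesis, a list that includes Alas1 and Fech, 3 were higher and none lower at 4 mM and 4 h, and 3 were higher and none lower at 6 mM, against 38.6% and 39.8% of all genes called. The median log2 fold change of the list at 10 mM was -0.02, against 0.01 for all genes. Cpox, which oxidises coproporphyrinogen, was higher at 10 mM, with 102 ± 3.40 CPM at 10 mM and 74.1 ± 1.18 CPM in vehicle (SD, n = 3 each; log2 fold change 0.46, adjusted p = 4.48e-07). Cpox was also higher at 4 mM (0.39) and at 6 mM (0.51).

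Set within the same library, the CPM ratio of Hmox1 to Alas1 at 4 h averaged 3.83 in vehicle, 1.45 at 1 mM, 2.81 at 4 mM, 4.64 at 6 mM and 6.53 at 10 mM (SD 0.513, 0.126, 0.164, 0.0184 and 0.360). The 1 mM libraries, at 1.34 to 1.59, and the 4 mM libraries, at 2.64 to 3.06, lay below all vehicle libraries, at 3.24 to 4.21. The 6 and 10 mM libraries lay above, at 4.63 to 4.66 and 6.13 to 6.82. After washout the ratio averaged 2.15 in vehicle and 1.56 at 10 mM, where libraries had 1.44 to 1.63 against 1.82 to 2.51 in vehicle. These ratios follow relative change and say nothing of molar amounts, since CPM is not scaled by transcript length.

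**Figure D3:**
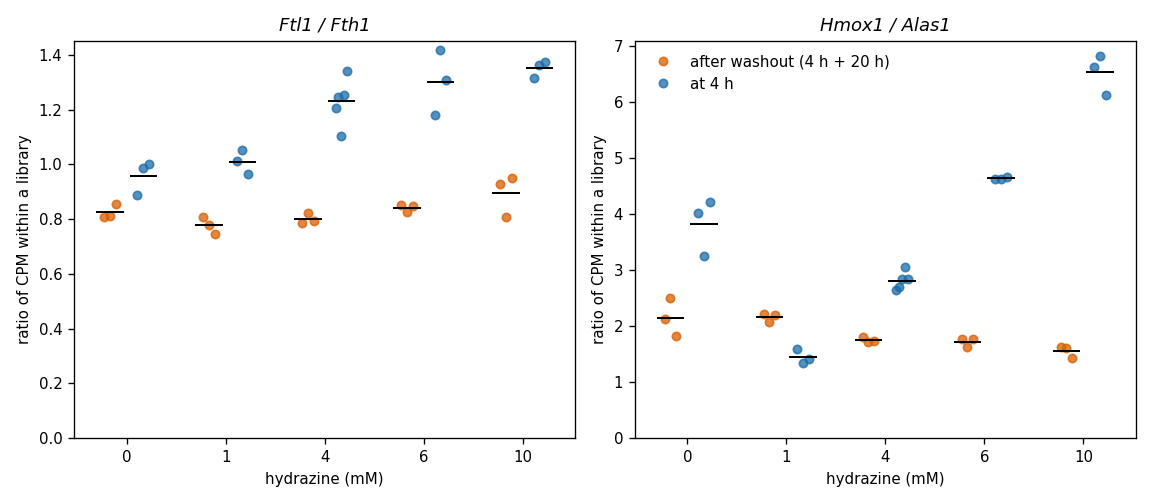
Ratio of Ftl1 to Fth1 CPM and of Hmox1 to Alas1 CPM within each library, by hydrazine dose in mM, with washout libraries in orange to the left of 4 h libraries in blue and group means as black bars. At 4 h the ferritin ratio averages 0.958 in vehicle and 1.35 at 10 mM, and the Hmox1 to Alas1 ratio dips to 1.45 at 1 mM and reaches 6.53 at 10 mM.

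Per kilobase of their longest coding transcript, the ferritin chains were the most abundant of the 10 genes. Their mean levels in 4 h vehicle were 1316 CPM per kb for Ftl1 and 891 CPM per kb for Fth1. The order of these chains rests on the transcript lengths used, 968 bases for Ftl1 and 1494 for Fth1. Before that scaling Fth1 had the higher mean, 1331 CPM against 1274 CPM. Hmox1 had 81.8 CPM per kb and Slc40a1 the lowest level, 1.43 CPM per kb. Ftl1 (ENSMUSG00000050708.16, chr7:45457944-45459884, minus strand, 4 exons), the chain that helps iron nucleate inside the cage, had 1205, 1275 and 1341 CPM in vehicle at 4 h and 1274, 1281 and 1178 CPM at 1 mM. At 4 mM it had 1610.0, 1629, 1529, 1858 and 1847 CPM, at 6 mM 1869, 1894 and 1881 CPM, and at 10 mM 2156, 2127 and 2183 CPM. Vehicle and 1 mM overlapped, and from 4 mM upwards all libraries of a dose lay above those of the dose below. The log2 fold change was -0.03 ± 0.11 at 1 mM (adjusted p = 0.909), 0.41 ± 0.10 at 4 mM (adjusted p = 0.00119), 0.56 ± 0.11 at 6 mM (adjusted p = 0.000110) and 0.76 ± 0.11 at 10 mM (adjusted p = 1.18e-06). The steps of 0.15 ± 0.10 for 6 against 4 mM and 0.20 ± 0.11 for 10 against 6 mM were not called (adjusted p = 0.398 and 0.159; 0.0446 for the second without replicate c of 6 mM after washout).

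Fth1 (ENSMUSG00000024661.6, chr19:9980598-9985098, plus strand), the chain with ferroxidase activity, moved less than Ftl1. At 10 mM and 4 h it had 1641, 1559.8 and 1588 CPM, against 1358, 1294 and 1340.4 CPM in vehicle. The groups did not overlap, and the log2 fold change of 0.26 ± 0.09 was called (adjusted p = 0.0191). The call was lost when libraries were scaled by totals alone, at 0.12 (adjusted p = 0.251), and when replicate b or c of vehicle or a or c of 10 mM was left out (adjusted p of 0.0566 to 0.0831). At 1, 4 and 6 mM the log2 fold changes were -0.11, 0.05 and 0.13, none called (adjusted p = 0.541, 0.674 and 0.295). The difference of 0.16 between 4 and 1 mM was not called (adjusted p = 0.174). Without replicate c of 6 mM after washout that difference was called, again at 0.16 (adjusted p = 0.0125). The ratio of Ftl1 to Fth1 at 4 h was 0.958 ± 0.0619 in vehicle, 1.01 ± 0.0440 at 1 mM, 1.23 ± 0.0861 at 4 mM, 1.30 ± 0.120 at 6 mM and 1.35 ± 0.0322 at 10 mM (SD, n = 3, and 5 for 4 mM). All libraries at 4 mM or above, at 1.10 to 1.42, lay above all vehicle libraries, at 0.887 to 1.00.

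After washout neither ferritin chain was called at any dose. Ftl1 had 943, 915 and 1040.3 CPM in vehicle and 1043, 929 and 1135 CPM at 10 mM, and these groups overlapped. At 6 mM replicates a and b had 997 and 956 CPM of Ftl1 and replicate c had 1448 CPM. Fth1 had 1173 and 1157 CPM in a and b and 1707 CPM in c, against 1128 to 1218 CPM in washout vehicle. With that replicate the log2 fold changes at 6 mM were 0.23 for Ftl1 and 0.20 for Fth1, and without it 0.01 and -0.01. Leaving out replicate b instead gave called values of 0.34 for Ftl1 and 0.30 for Fth1 (adjusted p = 0.0319 and 0.0280). Ftl1 was lower in washout vehicle than in 4 h vehicle, by a log2 change of -0.40 ± 0.11 (adjusted p = 0.0212). Leaving out replicate b or c of 4 h vehicle, or a or b of washout vehicle, ended that call (adjusted p of 0.0641 to 0.101).

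Reads of annotated ferritin pseudogenes were few: Ftl1-ps1, the copy with most, averaged 93.5 counts per library against 17909 for Ftl1. Adding the counts of all such copies to their parent genes changed no call among 190 gene and comparison results. Of 5 tested genes of ferritin and iron storage, a list that holds both chains, all 5 were higher at 10 mM and 4 h, against 26% of all genes. The others were Pcbp2 (log2 fold change 0.40) and Pcbp1 (0.29), chaperones known to carry iron to ferritin, and Ncoa4 (0.17), the receptor that delivers ferritin to lysosomes. Their adjusted p were 2.31e-08, 0.000519 and 0.0493, and under library totals alone 3 of the 5 were called. The Ncoa4 call was lost with the DESeq2 Wald test (adjusted p = 0.0562) and with DESeq2 size factors (adjusted p = 0.0582). It was also lost with library totals alone (0.03, adjusted p = 0.756). Without replicate c of 6 mM after washout the call was kept (0.15, adjusted p = 0.00992). At 4 mM 2 of the 5 were higher and 1 lower, against 19.5% and 19.1% of all genes. After washout none was called at any dose, where 0.981%, 3.48%, 11.1% and 5.32% of all genes were at 1, 4, 6 and 10 mM.

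Slc40a1 (ENSMUSG00000025993.10, chr1:45908068-45926523, minus strand), the iron exporter ferroportin, was a low transcript, with 11 to 127 counts per library. At 10 mM and 4 h it had 7.66, 9.10 and 7.70 CPM, against 3.35, 6.47 and 4.65 CPM in vehicle. The groups did not overlap, and the log2 fold change was 0.76 ± 0.23 (adjusted p = 0.00670). Without replicate a of vehicle it was 0.53 (adjusted p = 0.0727). The log2 fold changes at 1, 4 and 6 mM were 0.44, 0.33 and 0.45, none called (adjusted p = 0.250, 0.214 and 0.124). Without replicate b of vehicle those at 4 and 6 mM were called, at 0.61 and 0.72 (adjusted p = 0.0448 and 0.0258). Washout vehicle had 1.98, 0.920 and 2.05 CPM, all below the 3.35, 6.47 and 4.65 CPM of 4 h vehicle, with a log2 change of -1.53 ± 0.27 (adjusted p = 0.000409). After washout the largest change was 0.63 ± 0.28 at 6 mM (adjusted p = 0.143; 0.70 and adjusted p = 0.176 without replicate c), which was not called.

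Tfrc (ENSMUSG00000022797.15, chr16:32608920-32632794, plus strand, 19 exons), which carries the 4 sites in its 3′ UTR, was called higher at 10 mM at 4 h and lower at 4 and 6 mM after washout. At 4 h its libraries overlapped with vehicle up to 6 mM. Vehicle had 323, 271 and 304 CPM, 1 mM 297, 287 and 287 CPM, 4 mM 288, 269, 316, 286 and 276 CPM, and 6 mM 301, 341 and 298 CPM. At 10 mM it had 409, 444 and 395 CPM, all above every other library at 4 h. The log2 fold change at 10 mM was 0.48 ± 0.07 against vehicle (adjusted p = 3.24e-06) and 0.41 ± 0.07 against 6 mM (adjusted p = 5.23e-05). At 1, 4 and 6 mM it was -0.04, -0.06 and 0.07, none called (adjusted p = 0.796, 0.499 and 0.505).

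After washout Tfrc was lower at the middle doses but not at the top dose. Vehicle had 247, 259.9 and 291 CPM, 1 mM 223, 221 and 209 CPM, and 4 mM 177, 174 and 194 CPM. At 6 mM it had 186, 192 and 161 CPM, and at 10 mM 276, 283 and 283 CPM. All libraries at 1, 4 and 6 mM lay below every vehicle library, while those at 10 mM lay within the range of vehicle. The log2 fold change was -0.55 ± 0.07 at 4 mM (adjusted p = 5.47e-05) and -0.57 ± 0.07 at 6 mM (adjusted p = 7.87e-06; -0.49 and adjusted p = 2.83e-05 without replicate c). At 1 mM it was -0.29 ± 0.07 and just missed the threshold (adjusted p = 0.0516). Without replicate c of 6 mM after washout it was called lower, at -0.30 (adjusted p = 0.00909). It was called in 12 of 42 alternatives, over which the adjusted p ran from 0.00909 to 0.372. At 10 mM it was 0.08 ± 0.07 (adjusted p = 0.646).

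The return of Tfrc between 6 and 10 mM after washout was tested in a comparison added after the data were seen. The log2 difference was 0.64 ± 0.07 (adjusted p = 8.48e-06), rank 2 by p, in a comparison in which 0.0453% of genes (6 genes) were called (2 without replicate c and 1098 without replicate b of 6 mM after washout). Without replicate c of 6 mM it was 0.57 (adjusted p = 3.98e-05). With only the 6 libraries compared in the fit, the difference of 0.65 was not called (adjusted p = 0.634), and the lower call at 6 mM against vehicle was lost in the same way (log2 fold change -0.56, adjusted p = 0.162). Neighbouring doses from 1 to 4 mM and from 4 to 6 mM after washout gave Tfrc differences of -0.26 ± 0.07 and -0.01 ± 0.07, neither called (adjusted p = 0.195 and 0.942, with 0.136% and 0.0226% of genes called).

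Of 11 tested genes of iron uptake and transport, a list that includes Tfrc and Slc40a1, 4 were higher and 2 lower at 10 mM and 4 h, and 2 were higher and 5 lower at 4 mM, against 50.1% and 38.6% of all genes called. Slc39a14, an importer of iron not bound to transferrin, was higher at 10 mM (log2 fold change 0.40, adjusted p = 0.00159). Steap1, of a family of metalloreductases, was lower at 4, 6 and 10 mM (-0.26, -0.29 and -0.40). Slc11a2, the endosomal and membrane iron transporter DMT1, was lower at the same doses (-0.51, -0.41 and -0.30). In the list of heme transport and breakdown, 4 of 12 tested were higher and 2 lower at 10 mM and 4 h, near the 50.1% of all genes called; with library totals alone it was 3 and 6. Pgrmc1, a heme-binding membrane protein, was higher by 0.17 (adjusted p = 0.0323), a call lost with library totals alone (0.03, adjusted p = 0.706). Tmem14c, a mitochondrial porphyrin transporter, and Abcg2, a porphyrin exporter, were lower (-0.24 and -0.18). Flvcr1, known as a heme exporter and choline transporter, was lower at 4 mM (-0.35) and higher at 10 mM (0.57, adjusted p = 4.87e-06). Hmox2, the constitutive heme oxygenase, was not called at 10 mM (-0.11, adjusted p = 0.269), but was called lower with library totals alone (-0.25, adjusted p = 0.00851).

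Ireb2 (ENSMUSG00000032293.8, chr9:54863789-54912530, plus strand, 22 exons), which encodes IRP2, went down with dose at 4 h. Vehicle had 141, 155 and 144 CPM and 1 mM had 147, 148 and 151 CPM. At 4 mM it had 118, 126, 134, 129.5 and 127 CPM, at 6 mM 112, 131 and 128 CPM, and at 10 mM 105, 117 and 115 CPM. All libraries at 4, 6 and 10 mM lay below all vehicle and 1 mM libraries, and the 3 upper doses overlapped with their neighbours. The log2 fold change was -0.38 ± 0.09 at 10 mM (adjusted p = 0.00125). At 4 and 6 mM it was -0.21 ± 0.08 and -0.24 ± 0.09, just past the threshold (adjusted p = 0.0480 and 0.0397). Those 2 calls ended in 14 and 6 of 42 alternatives, with adjusted p up to 0.187 and 0.162. The step of -0.14 for 10 against 6 mM was not called (adjusted p = 0.267). Without replicate c of 6 mM after washout that step was called, at -0.15 (adjusted p = 0.0477).

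After washout Ireb2 was called at no dose. It had 146, 152 and 140.5 CPM at 10 mM, against 144, 148 and 135 CPM in vehicle, which overlapped. At 6 mM replicates a and b had 138 and 148 CPM and replicate c had 94.8 CPM; the log2 fold change was -0.17 with that replicate and -0.00 without it. Of 10 tested genes of iron regulation and sensing, which include Ireb2, 4 were higher and 1 lower at 10 mM and 4 h, near the 50.1% of all genes called. Aco1, which encodes IRP1, was higher by 0.16 log2 at 10 mM (adjusted p = 0.00720), a call lost with library totals alone (0.02, adjusted p = 0.746). Fbxl5, the iron-sensing ligase subunit that directs degradation of IRP2, was higher by 0.31 (adjusted p = 0.000311). Id1 and Smad6, both targets of the BMP signal that controls hepcidin in liver, were higher by 1.06 and 0.95 (adjusted p = 1.16e-06 and 6.55e-09). In the same libraries the summed mesenchymal markers were 15565 to 16598 CPM at 10 mM, against 12857 to 13812 CPM in vehicle. Of the 6, 4 were called higher, against 26% of all genes. Col1a1 was 0.20 and not called with library totals alone (0.06, adjusted p = 0.536). Pdgfrb and Vim stayed called higher under that scaling (0.55 and 0.35). The summed macrophage and leukocyte markers were 2.99 to 4.61 CPM at 10 mM, against 1.70 to 2.51 CPM in vehicle, with Adgre1 at 0. Cd68 made up most of such sums: over all 32 libraries it had a median of 1.99 CPM and reached 4.12 CPM. Lyz2, the next highest of the list, reached 0.750 CPM. The part of these markers in the results was not tested.

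The difference between the effect after washout and the effect at 4 h was tested gene by gene within each dose. Called were 2 of the 10 genes at 1 mM, 4 at 4 mM, 3 at 6 mM and 4 at 10 mM, against 1.09%, 17.3%, 24.4% and 36.4% of all genes. Hmox1 differed at every dose, by 0.74 ± 0.09 at 1 mM (adjusted p = 3.23e-05, rank 2 by p). It differed by -0.53 ± 0.09 at 4 mM (adjusted p = 4.20e-05), by -1.13 ± 0.09 at 6 mM and by -1.23 ± 0.09 at 10 mM (adjusted p = 7.03e-11 and 7.40e-12). Alas1 differed by -0.68 ± 0.11, -0.69 ± 0.10 and -0.54 ± 0.11 at 1, 4 and 6 mM, and by -0.00 ± 0.11 at 10 mM (adjusted p = 0.992). Tfrc differed by -0.49 ± 0.10, -0.63 ± 0.10 and -0.40 ± 0.10 at 4, 6 and 10 mM, and by -0.24 ± 0.10 at 1 mM (adjusted p = 0.286). With library totals alone the Tfrc difference at 10 mM was -0.24 and not called (adjusted p = 0.0749). Without replicate c of 6 mM after washout, the differences at 6 mM were -1.18 for Hmox1, -0.57 for Alas1 and -0.55 for Tfrc, all called. Ftl1 differed by -0.43 ± 0.14 at 4 mM (adjusted p = 0.0402) and -0.66 ± 0.15 at 10 mM (adjusted p = 0.00111). The call at 4 mM was lost in 11 of 41 alternatives, with adjusted p from 0.00288 to 0.153 over them. At 6 mM the Ftl1 difference was -0.33 ± 0.15 (adjusted p = 0.117), and without replicate c of 6 mM after washout it was -0.54 (adjusted p = 0.000715). Ireb2 differed at 10 mM, by 0.42 ± 0.13 (adjusted p = 0.0142), and at 6 mM only without that replicate (0.25, adjusted p = 0.0293; 0.08 with it). For Fth1 the difference at 10 mM was -0.28 ± 0.13 and not called (adjusted p = 0.0915). It was called in 2 of 41 alternatives, 1 of them without that replicate (-0.27, adjusted p = 0.00752).

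**Figure D4:**
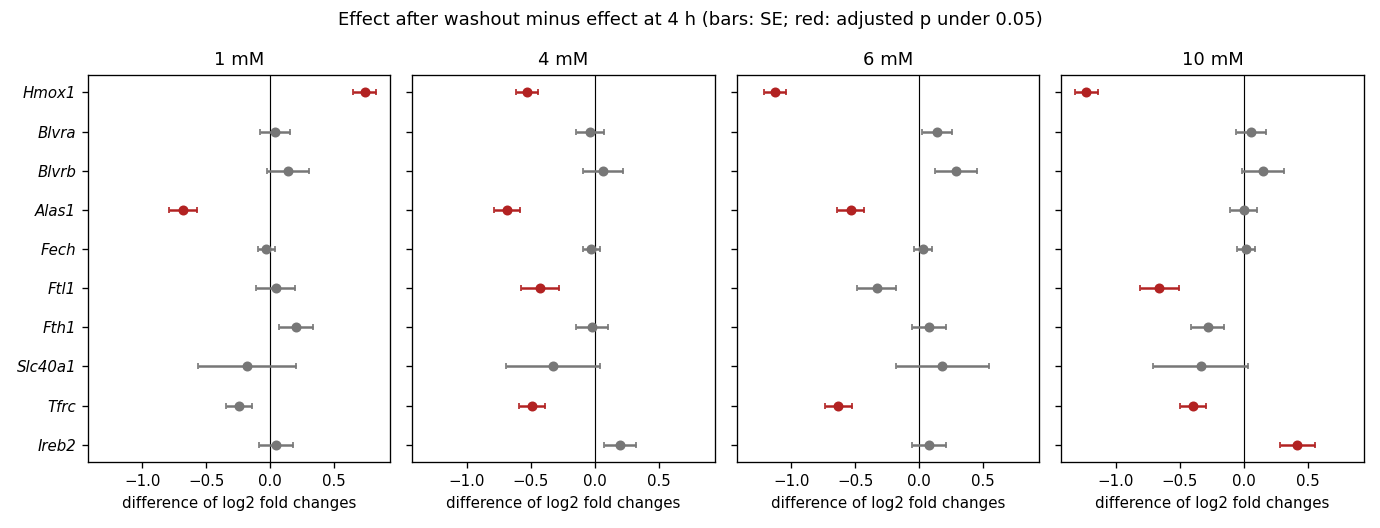
Log2 fold change after washout minus log2 fold change at 4 h, each against its own vehicle, for the 10 genes (rows) at 1, 4, 6 and 10 mM; points are estimates, bars are SEs and red marks an adjusted p under 0.05. Hmox1 lies at 0.74 at 1 mM and at -1.23 at 10 mM, and Alas1 lies at -0.68 at 1 mM and at -0.00 at 10 mM.

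Over the 10 group means of log2 CPM, which share libraries, depth and scaling, the genes varied together to different degrees. Pearson's r with Hmox1 was 0.950 for Ftl1, 0.869 for Fth1, 0.852 for Slc40a1, 0.790 for Tfrc, 0.706 for Alas1 and -0.698 for Ireb2. For Ireb2 the most negative values were with Fth1 (-0.875) and Ftl1 (-0.819). Fech went most closely with Alas1 (0.854) and Slc40a1 (0.843). By the same measure over all other tested genes with a mean of at least 5 CPM, Hmox1 was most like Ndrg1 (0.976), Ciz1 (0.974) and Ezh1 (0.969). Ndrg1 had 36.5 CPM at 1 mM, 178 CPM at 10 mM and 42.1 CPM in vehicle at 4 h, and 19.4 CPM at 10 mM and 20.5 CPM in vehicle after washout. Ftl1 was most like Ccdc130 (0.994), Pla2g12a (0.987) and Clba1 (0.985), and Tfrc like Cbll1 (0.952), Lin54 (0.948) and Hsp90aa1 (0.947).

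Among 11 tested regulators that act on Hmox1, 9 were higher and 1 lower at 10 mM and 4 h, with a median log2 fold change of 0.72, against 26% higher and 24.1% lower over all genes. At 1 mM 0 were higher and 5 lower, with a median of -0.19, against 4.48% higher and 5.36% lower over all genes. Bach1, the heme-regulated repressor, had 81.0 ± 2.61 CPM at 10 mM and 41.0 ± 0.925 CPM in vehicle (SD, n = 3 each; log2 fold change 0.98, adjusted p = 7.48e-10). It was also higher at 6 mM (0.42) and was not called at 1 or 4 mM (0.01 and 0.13). Nfe2l2, which encodes NRF2, was lower at 1 and 4 mM (-0.19 and -0.15) and higher at 10 mM (0.34, adjusted p = 6.67e-06). Keap1, the adaptor that marks NRF2 for degradation, was lower at 6 and 10 mM (-0.35 and -0.38). Jun, a subunit of AP-1, was lower at 1 mM and higher at 4, 6 and 10 mM, as Hmox1 was, with log2 fold changes of -0.79, 0.77, 1.58 and 1.90. Fos, its partner, was higher at 10 mM (2.59) on a low level of 7.70 ± 3.88 CPM, against 1.25 ± 0.785 CPM in vehicle.

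Of 11 tested NRF2 targets outside heme and iron, 1 was higher and 8 lower at 10 mM and 4 h, with a median of -0.41, against 26% higher and 24.1% lower over all genes. Txnrd1, thioredoxin reductase, was lower at every dose, by -0.42 at 1 mM, -0.71 at 4 mM, -0.75 at 6 mM and -0.91 at 10 mM. Osgin1, a growth-inhibiting stress gene, was lower at every dose as well (-0.42, -0.51, -0.55 and -0.64). Srxn1, sulfiredoxin, was higher at 4 mM (0.16) and lower at 10 mM (-0.68, adjusted p = 6.72e-12). Gclc, the catalytic subunit that starts glutathione synthesis, was higher at 4, 6 and 10 mM (0.55, 0.55 and 0.38). With library totals alone the Gclc call at 10 mM was lost (0.24, adjusted p = 0.0553), leaving 0 higher and 9 lower.

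**Figure D5:**
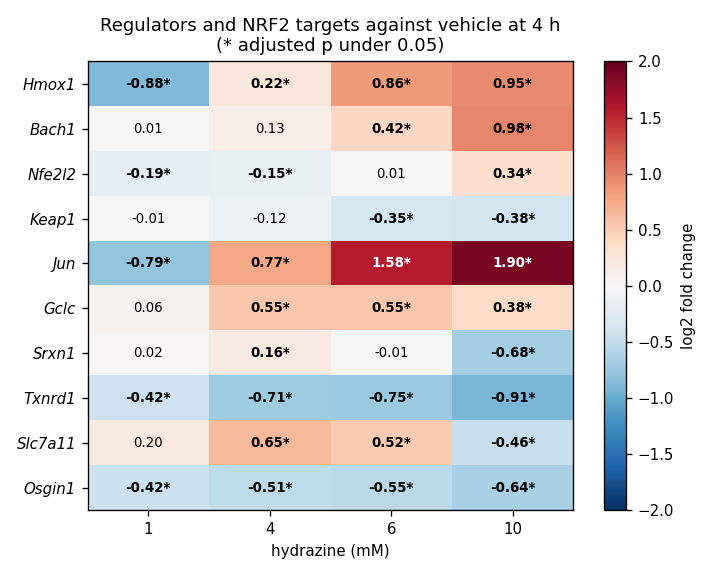
Log2 fold change against vehicle at 4 h for Hmox1, 4 of its regulators and 5 NRF2 targets (rows) at 1, 4, 6 and 10 mM (columns); stars and bold type mark an adjusted p under 0.05. Jun follows the order of Hmox1 with -0.79 at 1 mM and 1.90 at 10 mM, while Txnrd1 and Osgin1 are negative at every dose.

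In iron-sulfur cluster assembly 23 genes were tested. At 4 h those higher numbered 7, 7 and 4 at 4, 6 and 10 mM, and those lower 2, 1 and 4, near or below the 38.6%, 39.8% and 50.1% of all genes called. Fdxr, ferredoxin reductase and a known p53 target, was higher at every dose (0.47, 0.97, 1.12 and 1.07 log2 at 1, 4, 6 and 10 mM). Hspa9, the mitochondrial chaperone of the assembly complex, and Mms19, of the cytosolic targeting complex, were higher at 10 mM (0.61 and 0.50). Iba57, Isca2 and Nubp2, all assembly factors, were lower there (-0.49, -0.45 and -0.39), and library totals alone gave 3 higher and 9 lower. Of 10 tested ferroptosis genes, which include Tfrc, 5 were higher and 2 lower at 10 mM, against 26% and 24.1% of all genes. Chac1, which degrades glutathione, was higher at every dose (1.01, 2.00, 2.01 and 1.91). Slc7a11, the cystine importer that also stands in the NRF2 list, was higher at 4 and 6 mM (0.65 and 0.52) and lower at 10 mM (-0.46, adjusted p = 6.61e-06). Ptgs2, cyclooxygenase, and Sat1, a polyamine acetyltransferase, were lower at 1 mM (-0.77 and -0.37) and higher at 10 mM (0.92 and 0.58), and Lpcat3, a phospholipid-remodelling enzyme, was higher at 1, 4 and 6 mM (0.27, 0.32 and 0.24) and lower at 10 mM (-0.22).

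The RefSeq promoter table (bases just before and after each start) held 7 of the 10 genes; Hmox1, Slc40a1 and Fech were not in it. The letters TGACNNNGC, the core of the element that NRF2 and BACH1 bind, were searched on both strands and stood in 12.4% of all 32851 promoters and in the window of 1 of the 7 genes, Blvra. ACGTG, the core bound by hypoxia-inducible factors, stood in 19.6% of promoters and in those of Tfrc and Blvrb.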

How the data were processed

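The deposited table holds expected counts per gene that the authors computed for 32 libraries; the aligner, counter, genome build and annotation are not given in the sources used here. Per the labels' protocols, 1 µg of RNA was poly-A selected, made into stranded libraries with 15 PCR cycles and read as 75-base pairs. Of the values above 0, 74.3% were whole (tolerance 1e-06), and all were rounded before testing. Identifiers were matched to GENCODE M21 by gene ID; 48174 of 49585 (97.2%) had a symbol, and those without a name held 0.0181% of the counts. Coordinates are those of GENCODE M21 on GRCm38, and the authors' build may differ.

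edgeR 4.0.16 in R 4.3.3 filtered genes (minimum count 10, minimum total 15), scaled libraries by TMM and fitted 1 quasi-likelihood model with robust estimation to all 32 libraries (22 residual degrees of freedom, common biological coefficient of variation 0.0847). Adjusted p-values are Benjamini-Hochberg over 13258 genes; a gene was called below 0.05. Of 19 comparisons, 3 (neighbouring doses after washout) were added after seeing the data. The labels do not say that replicates were separate cultures, so p-values measure only how far these samples spread, and that spread may be technical. No libraries were copies of each other: over 37 replicate pairs the chi-square per degree of freedom was at least 2.10. Same-letter libraries did not deviate together over all genes (median r 0.00344 over 135 pairs, against -0.00315 over 324 pairs of other letters). No pairing by letter was thus seen, but a median over all pairs cannot exclude a weak one or one limited to some groups. Members and lists were chosen with earlier results of these data known. Beside members and 6 genes chosen by role (Bach1, Nfe2l2, Keap1, Hmox2, Aco1, Fbxl5), up to 3 list genes per direction were named: the largest changes called at 10 mM and 4 h with at least 5 CPM in 1 group. Symbols matched for all list genes except Fdx2 and Ciao3. Alternatives were the DESeq2 1.42.0 Wald test, DESeq2 size factors, library totals alone, no filter, no robust estimation, fewer groups in the fit, a replicate block, replicates a to c of 4 mM alone, summed ferritin copies and each library left out. The computation was tested on simulated data. The result of 1 gene of the heme synthesis list is not reported here.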

Additional observations from a re-analysis of the deposited data

Results flagged for a closer look

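A total of 13 results were set aside because the effect of a dose after washout differed from its effect at 4 h in a test of the difference itself (edgeR's quasi-likelihood test, adjusted p below 0.05 over all genes); each value is the log2 fold change after washout minus that at 4 h. Hmox1 differed by 0.74 at 1 mM, -0.53 at 4 mM, -1.13 at 6 mM and -1.23 at 10 mM. At 4 h Hmox1 was lower than vehicle at 1 mM and higher at the other doses. Alas1 differed by -0.68 at 1 mM, -0.69 at 4 mM and -0.54 at 6 mM. Tfrc differed by -0.49 at 4 mM, -0.63 at 6 mM and -0.40 at 10 mM. Ftl1 differed by -0.43 at 4 mM, a call lost in 11 of 41 alternatives (adjusted p up to 0.153), and by -0.66 at 10 mM, and Ireb2 by 0.42 at 10 mM. No library of the group of 5 stood apart for any of the 10 genes, and the groups of 3 were too small for that test.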

How the results depend on the processing

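No called result reversed under any alternative. The count of the 10 genes called moved by over 1.5 times in these cases. At 1 mM after washout it was 1 in place of 0, through Tfrc, with the DESeq2 Wald test, DESeq2 size factors and no filter. At 6 mM against vehicle after washout it was 0 in place of 3 with only the compared groups, and at 10 against 6 mM after washout 0 in place of 1. For 4 against 1 mM at 4 h it was 5 in place of 3 with only the same time point or only the compared groups, and for 10 against 6 mM at 4 h 4 in place of 2 with only the same time point. Leaving out each library gave 0 to 1 genes at 1 mM after washout, 2 to 6 at 6 mM (6 without its replicate b), 0 to 1 at 10 mM (0 without replicate b of washout vehicle) and 1 to 3 for 10 against 6 mM after washout. It gave 3 to 5 for the time difference at 6 mM, 2 to 4 for 10 against 6 mM at 4 h (both highest without replicate c of 6 mM after washout) and 2 to 5 for the vehicles (2 without replicate b of either). The replicate block changed 4 of 190 gene results, all to uncalled; for Ireb2 at 4 mM and 4 h it gave -0.22 (adjusted p = 0.0904), at 6 mM -0.24 (adjusted p = 0.0513), for 4 against 1 mM -0.24 (adjusted p = 0.0870), and for the Ftl1 time difference at 4 mM -0.33 (adjusted p = 0.153). Counts over all genes moved by over 1.5 times as follows. With only the same time point, genes called at 4 h numbered 1999 in place of 1305 at 1 mM and 1749 in place of 1069 for 6 against 4 mM, and after washout 1 in place of 130 at 1 mM, 142 in place of 461 at 4 mM, 492 in place of 1466 at 6 mM and 372 in place of 705 at 10 mM. With only the compared groups they numbered 2088 at 1 mM and 4 h, 0, 1429, 1 and 1399 at 1, 4, 6 and 10 mM after washout, and 1819 in place of 3240 for the time difference at 6 mM. Without the filter the counts after washout were 82, 307 and 932 at 1, 4 and 6 mM. The DESeq2 Wald test gave 227 at 1 mM after washout and 258 in place of 145 for the time difference at 1 mM (82 without the filter). For 6 against 4 mM at 4 h the replicate block gave 696 and replicates a to c of 4 mM alone 690. Neighbouring doses after washout, with 18, 3 and 6 genes from low to high, gave 63, 15 and 66 by DESeq2, 28, 9 and 11 without the filter, and 1, 1 and 3 with only the same time point; with only the compared groups, 6 against 4 mM and 10 against 6 mM gave 0. Leaving out 1 library gave 3 to 506 genes at 1 mM after washout, 154 to 975 at 4 mM, 732 to 2660 at 6 mM, 401 to 1208 at 10 mM, 669 to 1997 at 1 mM and 4 h and 516 to 1504 for the vehicles. It gave 53 to 497 for the time difference at 1 mM, 651 to 1720 for 6 against 4 mM at 4 h, and after washout 2 to 85 for 4 against 1 mM, 1 to 23 for 6 against 4 mM and 2 to 1098 for 10 against 6 mM. Scaling by library totals alone moved the median log2 fold change of all genes at 10 mM and 4 h to -0.12 in place of 0.01, with 2182 higher and 4557 lower calls in place of 3445 and 3195 (32.4% higher in place of 51.9%), and at 4 mM after washout gave 370 higher and 104 lower (78.1% higher in place of 66.4%). The TMM factors of the 3 libraries of 10 mM at 4 h were 0.911 to 0.923.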
